A study of Mus musculus with 9 samples.

Results

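Neutrophils sorted from the lung were compared with neutrophils sorted from peripheral blood. The comparison uses 6 of the 9 libraries of the series, chosen by their tissue label: 3 from lung and 3 from blood. The other 3 libraries, from bone marrow, entered the model only to share its estimate of the spread. All mice were wild type of the C57BL/6 strain, and no treatment, age or sex is named. Cells were sorted on a FACS Aria III, and polyadenylated RNA was sequenced. The sources used here do not give the sort markers, how the lung was dispersed or whether its vessels were flushed. Cells inside lung vessels and cells in lung tissue therefore cannot be told apart. Effects of how the cells were prepared cannot be told apart from those of the tissue either. The series calls its replicates biological but does not say whether each came from its own animal, so the tests measure the spread between these libraries.

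Neutrophils leave the bone marrow, circulate for a short time and are removed in tissues. The lung holds a large pool of them in its narrow capillaries, where they slow down, and this pool supplies early defence against inhaled microbes. Contact with endothelium, cytokines, microbial products or low oxygen can switch on NF-kB target genes, immediate early genes and stress genes in these cells.

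The deposited counts summed to between 42045548 and 50943078 per library for the 6 libraries, and 3 reads in 1 library equalled 0.0589 to 0.0714 CPM (counts scaled to one common library total). Levels below are CPM after scaling of the libraries by the trimmed mean of M-values (TMM), always given for replicates 1, 2 and 3 in that order. The TMM factors were 1.085, 1.256 and 1.05 in blood and 1.186, 1.14 and 0.791 in lung. Library totals are multiplied by this factor, so the scaling raised levels of lung replicate 3 relative to every other lung and blood library. Changes, rises and falls are log2 fold changes of lung minus blood, as estimate ± SE with n = 3 libraries a tissue, and p-values come from the quasi-likelihood test of edgeR, adjusted over 13510 genes by the Benjamini-Hochberg method. Across genes, log2 levels correlated at 0.975 to 0.987 between blood libraries and at 0.988 between lung replicates 1 and 2. Lung replicate 3 stood apart from lung replicates 1 and 2, at 0.936 and 0.953, where genes are not independent replicates. Lung and blood libraries correlated at 0.863 to 0.948.

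Transcripts of other cells were present and differed between libraries. The 19 tested fibroblast and smooth muscle markers summed to 690.3, 513 and 842 CPM in blood and 4504, 3002 and 895 CPM in lung, and 17 of them were higher in lung. The lung epithelial markers summed to 216, 204 and 216 CPM in blood and 1206, 527 and 321 CPM in lung, with 14 of 24 higher, and the endothelial markers to 66.2, 83.9 and 67.1 CPM in blood and 260.1, 201 and 78.3 CPM in lung, with 13 of 19 higher. The macrophage markers summed to 435, 380.2 and 380.0 CPM in blood and 777, 856 and 473 CPM in lung, with 12 of 20 higher. All 4 sums were highest in lung replicates 1 and 2, and lung replicate 3 was above the highest blood library in all but the endothelial sum. In bone marrow the fibroblast list summed to 892, 953 and 1436.5 CPM and the macrophage list to 130, 131 and 185 CPM. A sum can rest on few genes of its list, and which genes made up the blood sums was not tested. The sums therefore do not measure the amount of other cells in a library. Sftpd and Cyp2f2 (epithelium), Tek (endothelium), Eln (fibroblasts) and Krt79 and Cidec (alveolar macrophages) had 0 reads in all 3 blood libraries and reads in all 3 lung libraries. Leaving out blood replicate 1, 2 or 3 or lung replicate 1 reduced the epithelial count to 7, 8, 5 and 6, and leaving out blood replicate 2 reduced the macrophage count to 6. With lung replicate 3 as the only lung library, a fit added after the data were seen, 1 fibroblast, 3 epithelial, 4 endothelial and 3 macrophage markers were higher, and limma-voom called 2, 6, 6 and 3. In bulk RNA, fewer cells of a type and less RNA per cell cannot be told apart. Red cell and lymphocyte transcripts followed another order. The erythroid markers summed to 8839, 6143 and 842 CPM in blood and 443, 359 and 45.7 CPM in lung, the B cell markers to 577, 573 and 102 CPM in blood and 634, 561 and 71.4 CPM in lung, and the T and NK cell markers to 84.5, 269.6 and 42.7 CPM in blood and 272, 299.7 and 42.5 CPM in lung. Replicate 3 was lowest in these 3 lists in both tissues. In the monocyte, dendritic cell, B cell, T and NK cell, erythroid, platelet and eosinophil, mast cell and basophil lists, at most 1 gene was higher and at most 2 lower in this fit. Of 14 erythroid markers 1 was lower, but 3 without lung replicate 3, 5 with the replicate block and 7 of 9 tested in RSEM counts.

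**Figure D1:**
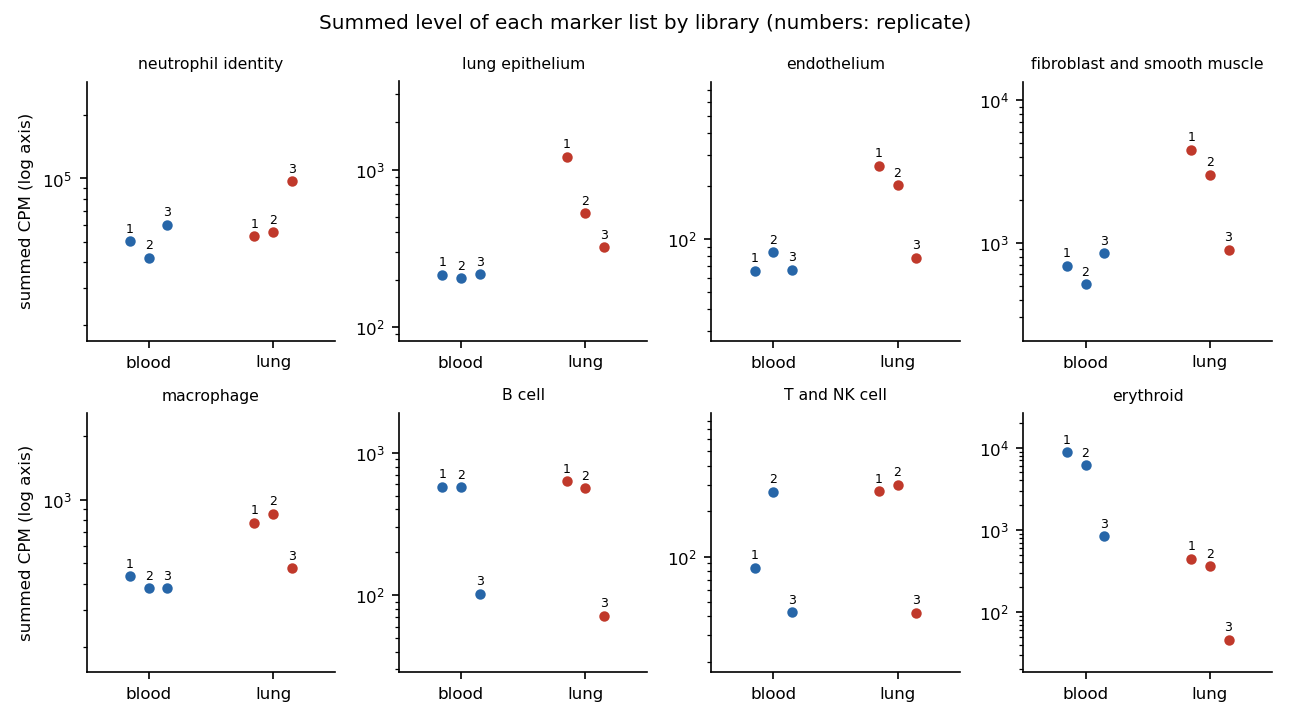
Summed level of the genes of each marker list (CPM, log axis) in the 3 blood and 3 lung libraries, with each point labelled by its replicate number. Fibroblast, endothelial, epithelial and macrophage markers were highest in lung replicates 1 and 2, B cell and T and NK cell markers were low in replicate 3 of both tissues, and erythroid markers were higher in blood.

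S100a9, S100a8, Ly6g and Itgam, which mark neutrophils, had no call, whereas other genes of the neutrophil identity list did. S100a9 and S100a8, which encode the subunits of calprotectin, measured 19625 FPKM in blood and 19909 FPKM in lung and 10080.0 FPKM in blood and 8099 FPKM in lung, per length of transcript and as means of the deposited values. S100a9 held 8880.2, 8194 and 11522 CPM in blood and 8888, 8545 and 15228 CPM in lung, and S100a8 held 3579.6, 3109 and 4313 CPM in blood and 2530.0, 2789.5 and 4636 CPM in lung. Their log2 fold changes were 0.19 ± 0.33 (adjusted p = 0.707) and -0.14 ± 0.30 (adjusted p = 0.764), and the libraries of the tissues overlapped. Both differences were small against the spread, and their sign changed under some alternatives. Ly6g, a neutrophil surface antigen, held 22.9, 21.2 and 24.8 CPM in blood and 15.4, 17.4 and 27.0 CPM in lung, a difference of -0.21 ± 0.25 (adjusted p = 0.588). The integrin gene Itgam also had no call, at -0.34 ± 0.32 (adjusted p = 0.471). The chemokine receptor gene Cxcr4, which acts in retention and homing of neutrophils to marrow, did not differ beyond its spread either, at 0.15 ± 0.28 (adjusted p = 0.740). Ly6g and Itgam were lower in lung replicates 1 and 2 than in every blood library, whereas lung replicate 3 was above the blood range for both. The place of lung replicate 3 depends on the scaling, as its TMM factor of 0.791 was the lowest of the lung and blood libraries. Of 28 neutrophil identity genes 9 were higher (13.2% of all genes, and 5 without blood replicate 2 or 3) and 2 lower (15.7%, and 1 without blood replicate 1, 2 or 3 or lung replicate 1 or 2 and 7 without lung replicate 3, and 7 with the replicate block), and the rises of Hdc, G0s2 and the near-identical Mrgpra2a and Mrgpra2b and the fall of Cxcr2 kept their calls with each of the 9 libraries left out.

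Of 13510 genes tested, 3900 (28.9%) had an adjusted p under 0.05: 1780 (13.2%) were higher and 2120 (15.7%) lower in lung. The rises were fewer and larger. Of the genes called, 1008 rose and 134 fell by more than 4-fold, and the median fold was 5.78 among rises and 1.95 among falls. Markers of other cells were among the largest rises. The median log2 fold change was 6.30, 6.27 and 6.54 in the epithelial, endothelial and fibroblast lists. The 12 largest rises picked at 20 CPM or more included Eln, Scgb1a1, Sftpa1 and Sftpc, as well as Csf3. The part of other cells in these fold values was not tested. The higher genes made up 10.3% of summed mean CPM in blood and 31.6% in lung, and the lower genes 23.5% and 9.86%. The 3 lung and 3 blood libraries did not overlap in 41.6% of the genes tested (lung above in 17.6% and below in 24%), and in 3797 of the 3900 genes called. The median log2 fold change of all genes was 0.05 with TMM scaling, 0.15 with DESeq2 size factors and 0.21 with upper-quartile scaling. The share of calls that were rises moved with this choice, from 45.6% to 56.9% and 55.9%, and was 25.8% in limma on FPKM plus 1, so small changes are read here against that shift.

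**Figure D2:**
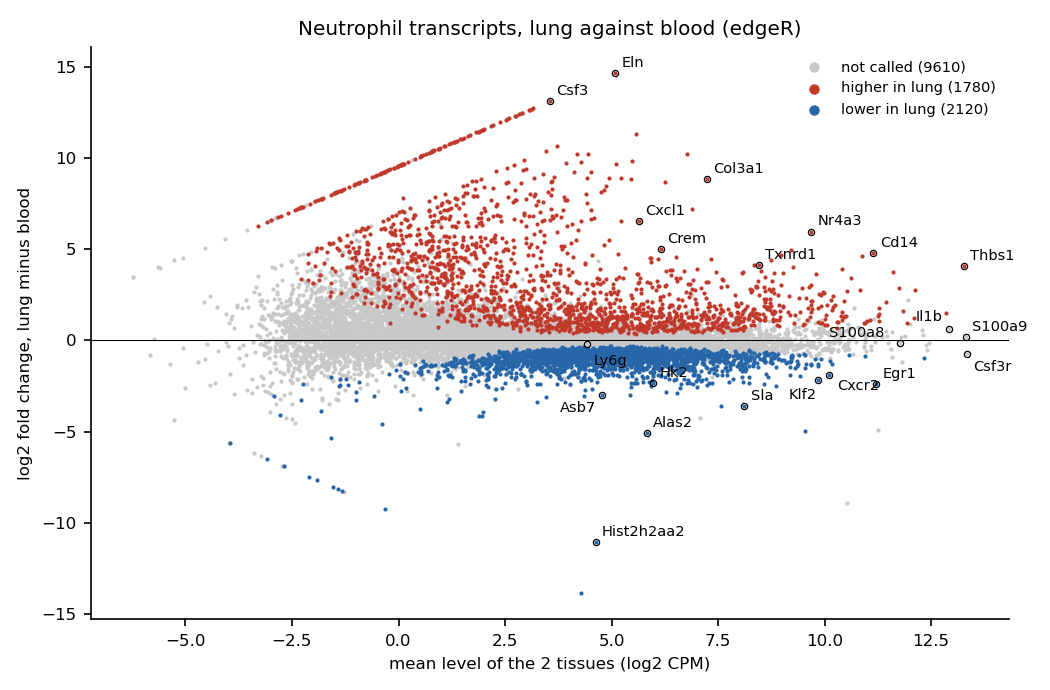
Log2 fold change, lung minus blood, of 13510 genes against the log2 of the mean CPM of the 2 tissues, coloured by the call of edgeR's test. Rises reach higher values than falls, and the slanting line of red points at the upper left is made of genes with 0 reads in every blood library, whose fitted fold change depends on the prior count.

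The number of calls depended on single libraries. Without blood replicate 2, 1040 genes rose (7.16%) and 1298 fell (8.94%), and without blood replicate 3 these were 956 (6.54%) and 966 (6.61%). Without blood replicate 1, 1213 rose (8.34%) and 1314 fell (9.03%). Without lung replicate 3, 2899 genes rose (19.8%) and 2953 fell (20.2%). Without lung replicate 1 or 2, 8.9% and 9.36% rose and 11.3% and 11.8% fell, and without bone marrow replicate 1, 2 or 3, 11.9%, 11.3% and 12.4% rose and 12.9%, 12% and 13.3% fell. With the replicate number as a block, which pairs libraries of one number, 2073 genes rose (15.3%) and 2678 fell (19.8%). DESeq2 size factors gave 14% higher and 10.6% lower, and limma-voom 9.1% and 15.4%. With lung replicate 3 as the only lung library, 1216 genes rose (8.61%) and 817 fell (5.79%). These shares are the background for the counts of list members given beside the same settings below. The lists were chosen with earlier results of these data known, so a count above these shares is not independent of that choice. Of the 1780 rises, 1763 kept their sign with lung replicate 3 alone and 870 kept the call. Of the 2120 falls, 2119 kept their sign and 621 the call. In all, 1677 genes (12.4%) kept their call, 763 (5.65%) higher and 914 (6.77%) lower, in the full fit and in all 9 fits that left out 1 library. Such calls are named robust below. Of 235 genes with a call that were drawn up for description, 82 also kept it in all 11 other alternatives, and the genes whose values are given below as rises or falls belong to these 82 unless a limit stands beside them.

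Cd14, Clec4e and Clec4n, genes of microbial sensing, rose in lung, whereas most genes of their list had no call. Cd14 (Entrez gene 12475, chromosome 18, 36725064 to 36726815), which encodes a co-receptor for bacterial lipopolysaccharide, held 249, 97.9 and 132 CPM in blood and 3856, 2887 and 6372 CPM in lung, a log2 fold change of 4.78 ± 0.49 (adjusted p = 0.000420). The lowest lung library lay more than 10-fold above the highest blood library. Clec4e and Clec4n, the genes of the lectin receptors Mincle and Dectin-2 for microbial glycolipids and mannans, rose by 2.45 ± 0.41 and 2.46 ± 0.41. Of 26 tested pattern recognition receptor genes, 8 were higher, against 13.2% of all genes, and 2 were lower, against 15.7%, with a list median of 0.19 beside 0.05 for all genes. The count higher was 3 without blood replicate 2, 4 without blood replicate 1 or 3 and 5 without lung replicate 3, and the count lower was 1 without blood replicate 3 and 9 without lung replicate 3 and 7 with the replicate block. Ticam1, the adaptor TRIF of endosomal Toll-like receptor signalling, was among the genes that fell, at -1.12 ± 0.21.

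Cxcr2 and S1pr4 fell and Ptafr rose among the receptors that guide neutrophil movement. Cxcr2 (Entrez gene 12765, chromosome 1, 74153994 to 74161246), the receptor for the chemokines Cxcl1 and Cxcl2 that draws neutrophils out of marrow and into tissue, held 1345, 1464 and 2397 CPM in blood and 299, 423 and 661 CPM in lung. Every lung library lay below every blood library, a change of -1.91 ± 0.36 (adjusted p = 0.00501). The call was lost with lung replicate 3 as the only lung library (edgeR adjusted p = 0.109). S1pr4, a sphingosine 1-phosphate receptor of leukocytes, fell from 39.9, 37.7 and 44.0 CPM to 11.2, 14.7 and 6.08 CPM, at -1.93 ± 0.27. Ptafr, the receptor for platelet-activating factor, rose from 652, 324 and 547 CPM to 1277, 1627 and 2609.6 CPM, at 1.86 ± 0.34. Of 22 tested chemoattractant receptor genes, 3 were higher and 4 lower (2 without blood replicate 3), shares near the 13.2% and 15.7% of all genes. The replicate block gave 5 higher and 7 lower. Il17ra, a receptor chain for interleukin 17, held 1025, 952 and 1285 CPM in blood and 219, 285 and 335 CPM in lung, a change of -1.96 ± 0.23 (adjusted p = 0.000679). Csf3r, the receptor for granulocyte colony-stimulating factor, had no call at -0.74 ± 0.31 (adjusted p = 0.111), but fell when the replicate number entered as a block (-0.78, edgeR adjusted p = 0.0195).

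Icam1 and Cd9 rose among the adhesion genes. Icam1, a ligand of the leukocyte integrins that is itself expressed on activated neutrophils, held 44.7, 33.9 and 37.0 CPM in blood and 325, 475 and 688 CPM in lung, a rise of 3.69 ± 0.33 (adjusted p = 0.000242). Cd9, a tetraspanin gene, rose by 2.31 ± 0.30. Of 27 tested adhesion genes, 6 were higher and 2 lower (13.2% and 15.7% of all genes), with a median of -0.06. Without lung replicate 3, 10 were lower, with the replicate block 5 were, and the count lower was 0 or 1 when any other library was left out.

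Many NF-kB genes rose. The NF-kB pathway holds Rel-family transcription factors in the cytoplasm by IkB inhibitors, and it induces many of its own subunits and inhibitors as feedback. Of 25 subunit and regulator genes, 14 were higher (13.2% of all genes) and 4 lower (15.7%), with a median of 1.18. With libraries left out, the rises came to 7 without blood replicate 2 or 3 and 9 without bone marrow replicate 1 or lung replicate 3, and the falls 0 without blood replicate 1 or 3, 1 without blood replicate 2 and 2 without lung replicate 2. The robust rises were Bcl3, Birc3, Nfkb2, Nfkbie, Relb and Traf1, and no fall was robust. Nfkbie, which encodes the inhibitor IkB-epsilon, held 42.4, 40.6 and 32.3 CPM in blood and 576, 776 and 1081 CPM in lung, a change of 4.40 ± 0.27 (adjusted p = 0.000129). Traf1, a signal adaptor of TNF receptors, held 7.46, 5.65 and 2.11 CPM in blood and 89.8, 98.8 and 161 CPM in lung. Nfkb2 and Relb, partners in the non-canonical branch, rose by 2.59 ± 0.25 and 2.58 ± 0.22, and Birc3, an inhibitor of apoptosis and ubiquitin ligase, by 1.87 ± 0.27. In each of these genes the lowest lung library was above the highest blood library.

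Promoter sequences are shown for 5 genes of these inducible groups, to place the letters that NF-kB, AP-1 and Egr proteins are known to bind beside the changes measured. Each is the 250 bases before 1 RefSeq start of the gene (GRCm38.p6, the mm10 assembly), 5′ to 3′ on the gene's strand, with the motif matches in capitals. Where a gene had several starts, the one whose window held the most kinds of motif is shown. Only called genes with a motif match in the window were eligible, both for those shown and for Il16 and Ltb. A match in each of these genes was therefore fixed by the choice and is not a result. The shares given after the sequences also count genes without a match. Nfkbie is at chr17:45555450-45555699, Cxcl1 at chr5:90890995-90891244, Il1rn at chr2:24336610-24336859, Gadd45b at chr10:80929841-80930090 and Klf2 at chr8:72318812-72319061, all on the + strand.
Nfkbie: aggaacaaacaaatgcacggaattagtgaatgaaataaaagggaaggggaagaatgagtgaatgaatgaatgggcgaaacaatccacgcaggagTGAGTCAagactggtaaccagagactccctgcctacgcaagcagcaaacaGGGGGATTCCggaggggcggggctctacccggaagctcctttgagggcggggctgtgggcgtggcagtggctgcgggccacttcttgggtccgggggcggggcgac
Cxcl1: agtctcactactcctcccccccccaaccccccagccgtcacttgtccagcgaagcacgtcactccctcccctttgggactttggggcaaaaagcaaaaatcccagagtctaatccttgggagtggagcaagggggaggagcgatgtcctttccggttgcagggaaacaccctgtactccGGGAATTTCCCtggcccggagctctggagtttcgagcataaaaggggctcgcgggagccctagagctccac
Il1rn: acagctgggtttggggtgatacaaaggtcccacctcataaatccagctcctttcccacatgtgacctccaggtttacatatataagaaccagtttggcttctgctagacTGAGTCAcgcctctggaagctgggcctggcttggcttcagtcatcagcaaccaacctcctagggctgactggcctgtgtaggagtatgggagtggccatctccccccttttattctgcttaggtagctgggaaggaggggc
Gadd45b: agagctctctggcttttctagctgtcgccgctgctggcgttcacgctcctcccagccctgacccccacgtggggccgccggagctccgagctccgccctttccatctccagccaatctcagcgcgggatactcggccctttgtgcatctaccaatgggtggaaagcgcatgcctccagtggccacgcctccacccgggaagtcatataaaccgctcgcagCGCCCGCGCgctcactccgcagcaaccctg
Klf2: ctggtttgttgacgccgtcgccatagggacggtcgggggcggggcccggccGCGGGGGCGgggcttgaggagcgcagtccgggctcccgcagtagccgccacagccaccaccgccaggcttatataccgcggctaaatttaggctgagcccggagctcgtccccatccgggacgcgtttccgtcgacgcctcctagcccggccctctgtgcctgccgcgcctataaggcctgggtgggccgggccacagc
Both strands were searched for the NF-kB consensus, TGANTCA (AP-1), TGACGTCA (cyclic AMP response element), GCGNGGGCG (Egr) and the CArG box. The Nfkbie promoter held 1 match to the NF-kB consensus and 1 to TGANTCA, and that of the chemokine gene Cxcl1 held 2 overlapping matches to the NF-kB consensus. That of Il1rn, the interleukin 1 receptor antagonist gene, held TGANTCA, and those of Gadd45b and Klf2 each held GCGNGGGCG, with the one of Gadd45b on the opposite strand. Among genes not shown, the promoters of Il16 and Ltb, both lower in lung, also held the NF-kB consensus, with 2 overlapping matches in Il16. For the shares, a gene counted if the window of any of its starts held the motif. Over 10669 tested genes with a promoter, the NF-kB consensus was found in 10.6%, GCGNGGGCG in 9.80%, TGANTCA in 5.83%, TGACGTCA in 2.97% and the CArG box in 1.48%. Among the 1369 higher genes these shares were 13.2%, 11.6%, 8.33%, 4.38% and 2.12%, and among the 1748 lower genes 9.84%, 10.8%, 5.03%, 2.35% and 1.26%. The NF-kB consensus was found for 9 of 20 genes of the NF-kB list, 6 of 16 cytokine and 5 of 12 chemokine genes. It was found for 4 of 12 AP-1 and bZIP genes and 2 of 16 other immediate early genes. TGANTCA was found for 7 of 16 cytokine genes, 4 of 20 NF-kB list genes and 2 of 12 chemokine genes. It was found for 1 of 16 other immediate early genes and 0 of 12 AP-1 and bZIP genes. A match describes letters in this window and not binding. The changes of Cxcl1, Il1rn, Il16, Ltb, Gadd45b and Klf2 are given with their groups below.

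Immediate early genes, which are transcribed within minutes of a stimulus without new protein, moved in both directions, and 11 of the 22 listed had no call. The Nr4a genes encode orphan nuclear receptors. Nr4a3 (Entrez gene 18124, chromosome 4, 48045305 to 48086446) held 63.4, 10.1 and 4.39 CPM in blood and 1064, 1429 and 2362 CPM in lung, a rise of 5.96 ± 1.08 (adjusted p = 0.00473). The blood libraries spanned over 10-fold, and all lay far below lung. Nr4a2 held 10.8, 5.21 and 1.54 CPM in blood and 68.4, 126 and 196 CPM in lung, a rise of 4.47 ± 0.72 (adjusted p = 0.00283), and the growth arrest gene Gadd45b rose by 2.47 ± 0.53. Klf2 and Egr1, which encode zinc-finger factors, went the other way. Klf2 (Entrez gene 16598, chromosome 8, 72319062 to 72321654), a factor linked to leukocyte quiescence, held 1105, 1405 and 2028 CPM in blood and 391, 319.9 and 280.0 CPM in lung, a change of -2.19 ± 0.27 (adjusted p = 0.000801). Egr1 held 7151, 2555 and 2302 CPM in blood and 577, 756 and 936 CPM in lung, a change of -2.40 ± 0.48 (adjusted p = 0.00642) that lost its call with lung replicate 3 as the only lung library (edgeR adjusted p = 0.142). Ier2 fell by 1.41 ± 0.20. Of 22 genes in this list, 6 were higher (13.2% of all genes) and 5 lower (15.7%). The rises were 3 without blood replicate 2 or 3 or lung replicate 2, and the falls 3 without blood replicate 3.

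The AP-1 and related bZIP factors had 4 of 14 genes higher (13.2% of all genes) and none lower (15.7%). The rises were 1 without blood replicate 3 and 2 without bone marrow replicate 1 or 2, blood replicate 2 or lung replicate 2 or 3. The falls were 2 with the replicate block and 3 without lung replicate 3. Batf alone was robust, at 1.5 ± 0.25. Fos itself held 3602, 3590.0 and 7777 CPM in blood and 1487, 2281 and 2813 CPM in lung, with no call at -1.19 ± 0.40 (adjusted p = 0.0511), but with the replicate block the change was -1.15 (edgeR adjusted p = 0.00662). Crem, which encodes cyclic AMP response modulators including a short repressor, held 5.38, 4.0 and 3.58 CPM in blood and 113, 102 and 203 CPM in lung, a rise of 5.01 ± 0.32 (adjusted p = 0.000129). The phosphodiesterase genes Pde4d and Pde4b, which degrade cyclic AMP, rose by 3.43 ± 0.54 and 1.77 ± 0.31. Pde4d held 7.83, 3.51 and 1.54 CPM in blood and 38.3, 38.1 and 62.8 CPM in lung. These 3 were the robust rises among 22 cyclic AMP signalling genes, of which 6 were higher (13.2% of all genes) and 4 lower (15.7%). The rises were 3 without blood replicate 2. The falls were 1 without blood replicate 3 and 2 without blood replicate 2 or lung replicate 1 or 2.

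Feedback regulators of MAP kinases also moved, beside 13.2% of all genes higher and 15.7% lower. Of 14 phosphatase and Sprouty genes, 7 were higher (3 with lung replicate 3 alone) and 3 lower (1 without blood replicate 3). Dusp16, a phosphatase gene acting on JNK, held 53.1, 42.5 and 47.2 CPM in blood and 549, 499 and 984 CPM in lung, a rise of 3.83 ± 0.34 (adjusted p = 0.000242). Dusp5, a nuclear ERK phosphatase gene, rose by 1.95 ± 0.31, and Dusp7, an ERK phosphatase gene, fell by 2.18 ± 0.20, from 29.3, 31.8 and 40.7 CPM to 7.19, 8.99 and 6.21 CPM. Dusp8 and the Sprouty genes Spry1 and Spry4 were the other robust rises, and genes of ERK phosphatases lay on both sides.

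**Figure D3:**
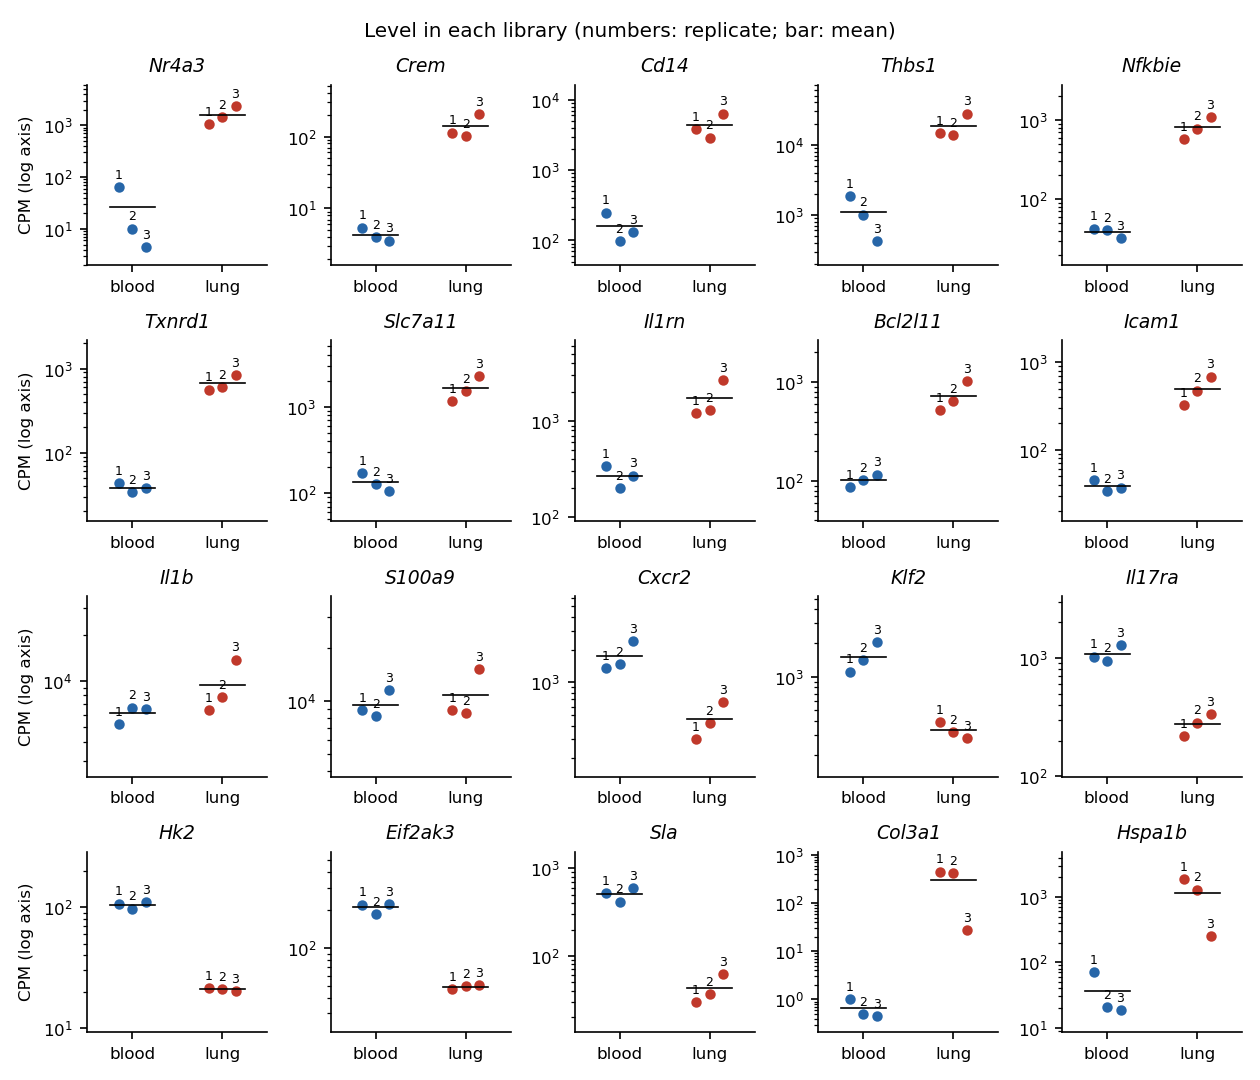
Level of 20 genes in each library (CPM, log axis), blood in blue and lung in red, with replicate numbers and a bar at the mean of 3 libraries. In the upper 2 rows every lung library lies above every blood library. Il1b and S100a9 overlap or lie close, Cxcr2 to Sla lie lower in lung, and Col3a1 and Hspa1b are higher in lung replicates 1 and 2 than in lung replicate 3.

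Cytokine genes were led by a gene without a read in blood. Csf3 (Entrez gene 12985, chromosome 11, 98701313 to 98703629), which encodes granulocyte colony-stimulating factor, had 0 reads in all 3 blood libraries and 934, 966 and 1377 reads in lung. Against a floor of 3 reads over the blood group it was at least 1005-fold higher in lung (edgeR adjusted p = 0.00109), with 17.0, 19.3 and 34.2 CPM. The series table counted about 2 reads for each RSEM count, and if each fragment was counted 2 times this bound is 2 times too high. Il1a held 12.4, 1.98 and 0.815 CPM in blood and 70.4, 109 and 164 CPM in lung, a rise of 4.50 ± 0.90 (adjusted p = 0.00697). Il1rn, whose product blocks the interleukin 1 receptor, held 339, 201 and 271 CPM in blood and 1213, 1292 and 2670.1 CPM in lung, a rise of 2.67 ± 0.36 (adjusted p = 0.00124). Il1b, in contrast, was among the most abundant transcripts of both tissues, at 4956 FPKM in blood and 6530.2 FPKM in lung, and had no call, at 0.60 ± 0.32 (adjusted p = 0.196). It held 5199, 6647 and 6515 CPM in blood and 6407, 7772 and 13717 CPM in lung, with lung replicate 3 well above the rest. Tnf had no call either, at 0.74 ± 0.61 (adjusted p = 0.412). Il16, a chemoattractant for CD4-bearing cells, held 385, 445 and 664 CPM in blood and 89.3, 91.4 and 119 CPM in lung, a change of -2.32 ± 0.25 (adjusted p = 0.000503). Of 23 tested cytokine genes, 9 were higher (13.2% of all genes) and 3 lower (15.7%), with a median of 1.20. Ltb, lymphotoxin beta, was the other robust fall, at -1.30 ± 0.20, but lost its call with lung replicate 3 alone (edgeR adjusted p = 0.0695).

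Among chemokine ligand genes, 6 of 18 were higher (3 without blood replicate 2) and none lower, and 1 was higher with lung replicate 3 alone. Among all genes, 13.2% were higher and 15.7% lower. Cxcl1, a neutrophil attractant that binds Cxcr2, held 1.83, 1.11 and 0.204 CPM in blood and 78.6, 82.5 and 137 CPM in lung, a rise of 6.56 ± 0.72 (adjusted p = 0.000571). Cxcl2, another Cxcr2 ligand, held 3137, 807 and 235 CPM in blood and 6557, 3977 and 9084 CPM in lung and was the fifth most abundant transcript of lung per length, at 1382 FPKM in blood and 5804 FPKM in lung. Its log2 fold change of 2.23 ± 0.78 missed the threshold (adjusted p = 0.0600), and blood replicate 1 lay more than 10-fold above blood replicate 3.

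Zc3h12d, Khsrp and Zfp36l2 fell among the regulators of cytokine mRNA decay. Several proteins of this list bind AU-rich elements or stem loops of short-lived transcripts. Among all genes tested, 15.7% were lower and 13.2% higher. Of 15 genes, 8 were lower (4 without blood replicate 1, 2 or 3, 5 with DESeq2 size factors and 2 with lung replicate 3 alone), 6 had no call and 1 was higher (2 without bone marrow replicate 1 or with the replicate block), with a median of -0.58. Zc3h12d, a relative of the nuclease Regnase-1, held 29.8, 33.1 and 32.8 CPM in blood and 7.90, 9.27 and 3.30 CPM in lung, a change of -2.22 ± 0.33 (adjusted p = 0.00178). Khsrp, an AU-rich element binding protein gene, fell by 1.03 ± 0.15. Zfp36l2 held 916, 944 and 1444 CPM in blood and 336, 418 and 425 CPM in lung, a change of -1.49 ± 0.24 (adjusted p = 0.00284) that lost its call with lung replicate 3 alone (edgeR adjusted p = 0.0747). The rise, Zc3h12a (1.13 ± 0.31), was lost without blood replicate 2 or 3 or lung replicate 2 (0.118, 0.134 and 0.0583, edgeR adjusted p) and on the 6 libraries alone (0.0678).

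Interferon-stimulated genes, which encode antiviral and GTPase proteins induced through STAT factors, were lower in part. Of 48 genes, 18 were lower (15.7% of all genes) and 1 higher (13.2%), with a median of -0.65. Falls came to 8 without blood replicate 2, 4 without the third, 10 with DESeq2 size factors and 1 with lung replicate 3 as the only lung library. Robust falls were Igtp, Irgm2, Slfn1 and Usp18, of which Slfn1 alone kept its call in lung replicate 3. Slfn1, a Schlafen family gene, held 575, 577 and 767 CPM in blood and 79.4, 109 and 182 CPM in lung, a change of -2.37 ± 0.33 (adjusted p = 0.00141). Isg15, a ubiquitin-like modifier gene, was the exception, with 52.7, 47.7 and 54.8 CPM in blood and 145, 176 and 288 CPM in lung and a rise of 1.97 ± 0.29 (adjusted p = 0.00182).

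Genes of the Bcl2 family and its partners moved on both sides. Of 23 apoptosis genes, 7 were higher (13.2% of all genes) and 8 lower (15.7%, and 5 without blood replicate 1, 2 or 3). Bcl2a1b, Bcl2a1d and Bcl2a1a, near-identical copies of an anti-apoptotic gene whose reads may have been divided among them, rose by 3.32 ± 0.36, 3.46 ± 0.41 and 3.12 ± 0.30. Bcl2l1, which encodes Bcl-xL, rose by 1.44 ± 0.26. Bcl2l11, which encodes the pro-apoptotic protein Bim, rose as well, with 87.0, 101 and 116 CPM in blood and 519, 638 and 1020.5 CPM in lung and a change of 2.84 ± 0.29 (adjusted p = 0.000417). Tnfrsf10b, a death receptor gene, was a further robust rise. Bid, a pro-apoptotic member, held 141, 119 and 181 CPM in blood and 33.1, 35.5 and 57.8 CPM in lung, a change of -1.80 ± 0.26 (adjusted p = 0.00168), and Bbc3 (Puma), Casp9 (caspase 9) and Bak1 fell, with changes of -1.65 ± 0.21, -1.53 ± 0.20 and -1.17 ± 0.15.

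Several genes of oxidative stress defence rose, and most of these rises were robust. Nrf2 and metal-responsive factors drive many of them. Txnrd1, thioredoxin reductase 1, held 43.2, 34.0 and 38.2 CPM in blood and 563, 602 and 834 CPM in lung, a rise of 4.12 ± 0.26 (adjusted p = 0.000129). Slc7a11, the cystine importer that feeds glutathione synthesis, held 169, 126 and 105 CPM in blood and 1152, 1523 and 2266 CPM in lung, a rise of 3.63 ± 0.31 (adjusted p = 0.000242). Srxn1, sulfiredoxin, rose by 3.66 ± 0.45 and the metallothionein gene Mt1 by 4.20 ± 0.65. Mt1 held 3.23, 1.32 and 1.88 CPM in blood and 64.9, 31.4 and 21.4 CPM in lung, highest in lung replicate 1. Of 18 genes, 9 were higher (13.2% of all genes) and 3 lower (15.7%), with a median of 1.43, and 7 of the rises were robust. Gclm, a glutathione synthesis gene, was a robust fall, at -0.78 ± 0.15, but RSEM counts gave it no call (edgeR adjusted p = 0.0717).

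G0s2, Dgat1 and Plin2 rose and Lipe fell among the cholesterol and lipid droplet genes. G0s2, which encodes an inhibitor of adipose triglyceride lipase, held 336, 227 and 238 CPM in blood and 2799.5, 2076 and 3741 CPM in lung, a rise of 3.43 ± 0.30 (adjusted p = 0.000242). Dgat1, which makes triglyceride, rose by 2.92 ± 0.27 from 197, 155 and 206 CPM to 1607, 1058 and 1554 CPM, and Plin2, a lipid droplet coat gene, by 1.70 ± 0.19. Lipe, hormone-sensitive lipase, fell by 1.89 ± 0.18 from 112, 92.5 and 128 CPM to 26.7, 29.4 and 33.2 CPM. Hilpda, a hypoxia-inducible droplet gene, held 19.2, 1.88 and 0.974 CPM in blood and 190.4, 119 and 214 CPM in lung, a rise of 4.57 ± 1.04 that became 6.93 without blood replicate 1 and lost its call with lung replicate 3 alone (edgeR adjusted p = 0.0548). Of 33 genes in this list, 11 were higher (13.2% of all genes), 2 lower (15.7%) and 20 without a call. The falls numbered 1 without bone marrow replicate 2 or blood replicate 1, 2 or 3 or lung replicate 1 and 6 without lung replicate 3.

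Glycolysis and hypoxia genes did not move as a block. Hk2, hexokinase 2, held 107, 97.2 and 111 CPM in blood and 21.2, 21.0 and 20.2 CPM in lung, a change of -2.33 ± 0.13 (adjusted p = 0.000129) with little spread in either tissue. Pfkp, a phosphofructokinase gene, and Ero1l, an endoplasmic reticulum oxidase gene, rose by 1.29 ± 0.18 and 0.98 ± 0.15. Of 31 genes, 5 were higher (2 without blood replicate 2 or 3) and 5 lower (2 without blood replicate 3, 3 without bone marrow replicate 1 or 2 or blood replicate 1 or 2 or lung replicate 1 or 2 and 9 without lung replicate 3), close to the shares among all genes. Vegfa, the vascular growth factor gene, held 357, 111 and 85.4 CPM in blood and 538, 634 and 854 CPM in lung, a rise of 1.87 ± 0.49 (adjusted p = 0.0203) that was lost without blood replicate 2 or 3 (0.0749 and 0.0758), with lung replicate 3 alone (0.0628), on the 6 libraries alone (0.0597) and in RSEM counts (0.0948, all edgeR adjusted p).

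Secreted and repair-related genes included the largest gain in CPM of the comparison. Thbs1 (Entrez gene 21825, chromosome 2, 118111876 to 118127133), thrombospondin 1, a matrix glycoprotein that activates TGF-beta and limits vessel growth, held 1867, 1009 and 423 CPM in blood and 14617, 13771 and 27756 CPM in lung, a rise of 4.09 ± 0.56 (adjusted p = 0.00139). F3, tissue factor, the starter of coagulation, rose by 2.86 ± 0.41 from 5.14, 2.75 and 1.61 CPM to 17.4, 21.7 and 29.8 CPM. Of 24 growth and repair factor genes, 11 were higher (13.2% of all genes) and 1 lower (15.7%). The rises were 7 without blood replicate 2, and the falls 0 without blood replicate 1, 2 or 3. Adamts1, a secreted metalloprotease gene, was higher too, but at 31.6, 17.5 and 1.91 CPM in lung it was lowest in replicate 3, as the stromal markers were. Limma-voom did not call it (adjusted p = 0.269), nor did edgeR with lung replicate 3 alone (adjusted p = 0.0914). The Adamts1 estimate of 8.0 ± 1.63 became 12.56 without blood replicate 2.

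Several abundant genes outside these groups rose. Hdc, histidine decarboxylase, which makes histamine, held 1567, 833 and 1059 CPM in blood and 6394, 5905 and 10975 CPM in lung, a rise of 2.75 ± 0.36 (adjusted p = 0.00106). Tgm2, a protein cross-linking transglutaminase, held 251, 87.1 and 105 CPM in blood and 3248, 2845 and 4789.9 CPM in lung, a rise of 4.62 ± 0.50 (adjusted p = 0.000499). Fth1, the ferritin heavy chain and the second most abundant transcript of lung per length, held 5714, 3003 and 2878 CPM in blood and 10390.0, 8506 and 13717 CPM in lung. Its rise of 1.49 ± 0.35 (adjusted p = 0.0123) was lost without blood replicate 2 or 3 (edgeR adjusted p = 0.0750 and 0.0841). Il1r2, the decoy receptor of interleukin 1, rose by 2.86 ± 0.67 (adjusted p = 0.0125), a call lost without blood replicate 3 (0.0565).

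Most granule and oxidase genes had no call. Neutrophil granules are filled in the marrow, and their cargo genes are shut down before release. None of 9 tested NADPH oxidase genes passed edgeR's test, and none passed with any library left out, with 1 gene at an unadjusted p under 0.05. DESeq2 and limma-voom called none. The replicate block gave 2 higher and 1 lower, upper-quartile scaling and lung replicate 3 alone each gave 3 higher, and RSEM counts gave 1 lower. Limma on FPKM plus 1 gave 3 higher and 2 lower. Of 12 primary granule genes 1 was higher, and of 17 specific granule genes 2 were higher and 1 lower, none of them robust. Of 17 tertiary granule and secretory vesicle genes, 6 were higher (13.2% of all genes, and 2 without blood replicate 2 and 3 without blood replicate 1 or 3), and Cd14 and the vesicle fusion gene Stx11 (2.12 ± 0.26) were robust. Without lung replicate 3, 5 of the 17 were lower, and with the replicate block 4. Counts of the first 2 lists also moved by over 1.5 times: primary granule rises were 0 without blood replicate 2 or 3 and 2 without lung replicate 3, specific granule rises 0 without blood replicate 2 or 3 or lung replicate 2 and 1 without bone marrow replicate 1, 2 or 3 or blood replicate 1 or lung replicate 1 or 3, and specific granule falls 0 without blood replicate 1, 2 or 3 or lung replicate 1 or 2 and 4 without lung replicate 3, while the replicate block gave 2 primary granule rises and 3 specific granule falls.

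Rara, Cebpd, Cebpe and Klf5 fell and Runx3 rose among transcription factors of granulocyte development. Of 16 genes, 6 were lower (15.7% of all genes) and 4 higher (13.2%). The rises were 1 without blood replicate 3 and 2 without bone marrow replicate 1, 2 or 3, blood replicate 2 or lung replicate 2 or 3. Rara, a retinoic acid receptor that promotes granulocyte maturation, held 667, 685 and 996 CPM in blood and 121, 137 and 159 CPM in lung, a change of -2.50 ± 0.22 (adjusted p = 0.000242). Cebpd held 339, 318 and 456 CPM in blood and 83.6, 81.2 and 96.0 CPM in lung, a change of -2.09 ± 0.22 (adjusted p = 0.000488), and Cebpe and Klf5 fell, with changes of -1.83 ± 0.25 and -1.43 ± 0.20. Runx3 rose by 1.69 ± 0.21 from 25.4, 25.6 and 19.0 CPM to 60.7, 74.6 and 90.0 CPM. Eif2ak3, which encodes the endoplasmic reticulum stress kinase PERK, held 220.4, 186 and 224 CPM in blood and 46.6, 49.6 and 50.6 CPM in lung, a change of -2.10 ± 0.13 (adjusted p = 0.000129).

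Among the steepest robust falls were genes that belong to none of the lists. Sla (Entrez gene 20491, chromosome 15, 66780819 to 66831829), a Src-like adaptor that dampens antigen receptor signalling in lymphocytes, held 525, 416 and 595 CPM in blood and 29.4, 36.3 and 62.4 CPM in lung, a change of -3.58 ± 0.32 (adjusted p = 0.000242), which was -1.79 in RSEM counts (edgeR adjusted p = 0.00674). Asb7, a substrate adaptor of a ubiquitin ligase, held 46.3, 46.9 and 51.6 CPM in blood and 5.28, 7.08 and 5.93 CPM in lung, a change of -2.98 ± 0.16 (adjusted p = 0.000129). Xpc, a sensor of DNA damage in nucleotide excision repair, held 115, 142 and 236 CPM in blood and 16.1, 21.5 and 28.3 CPM in lung, a change of -2.90 ± 0.33 (adjusted p = 0.000589). In each of these the lung libraries lay together, well below blood. Abhd15, Nfic, Cep19, Rbm43 and Jade2 fell, with changes of -2.97 ± 0.29, -2.84 ± 0.25, -2.71 ± 0.34, -2.66 ± 0.26 and -2.59 ± 0.18. Jade2, a chromatin-associated ubiquitin ligase gene, held 155, 146 and 205 CPM in blood and 25.4, 33.1 and 25.3 CPM in lung.

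Hspa1a and Hspa1b rose among the heat shock genes, and they were high in the libraries where stromal and epithelial transcripts were high. Of 19 genes, 11 were higher (13.2% of all genes) and none lower (15.7%, and 1 with the replicate block), with a median of 1.13. The rises came to 5 without blood replicate 2 and 7 without blood replicate 3 or lung replicate 2. Hspa1b and Hspa1a, near-identical copies of the inducible Hsp70 gene, held 1888, 1292 and 248 CPM and 1589.8, 1097 and 216 CPM in lung against 70.4, 20.5 and 18.6 CPM and 73.7, 21.3 and 19.3 CPM in blood. Their rises of 4.97 ± 1.08 and 4.67 ± 0.97 lost the call with lung replicate 3 alone (edgeR adjusted p = 0.133 and 0.116). Col3a1, a fibroblast collagen gene, fell off in the same library, with 1.02, 0.487 and 0.453 CPM in blood and 449, 423 and 27.2 CPM in lung, and its rise of 8.84 ± 1.86 lost the call there and in limma-voom (adjusted p = 0.0909 and 0.0993). Limma-voom called 6 heat shock genes higher, and so did edgeR with lung replicate 3 alone. The part of other cells in the heat shock rise was not tested. By contrast C1qa, a complement gene of macrophages, held 0.392, 0.0869 and 0.181 CPM in blood and 28.0, 20.6 and 12.6 CPM in lung and kept its call in lung replicate 3 alone.

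**Figure D4:**
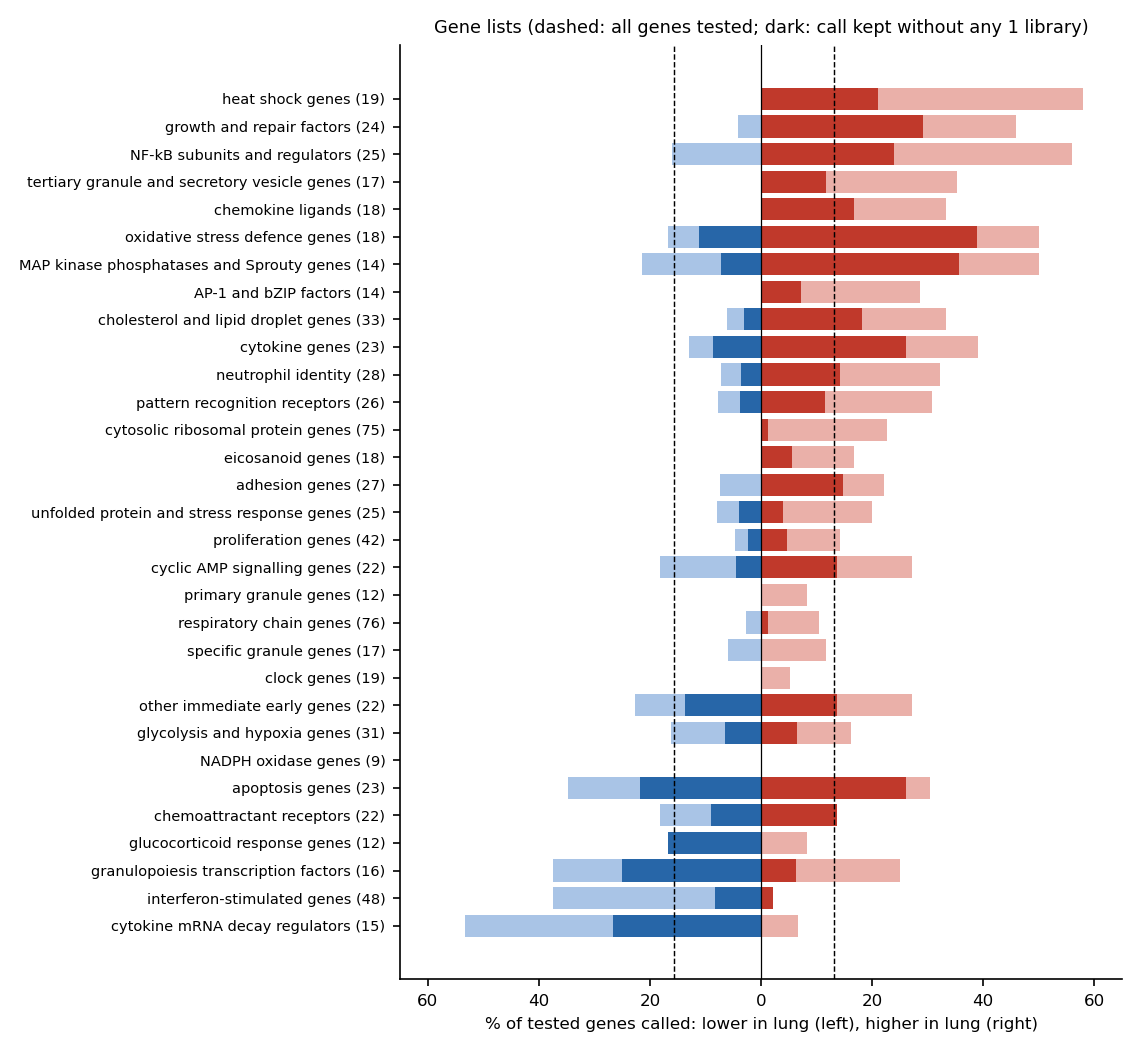
Share of tested genes in each list that edgeR called higher (right, red) or lower (left, blue) in lung, with the number tested in brackets and the share of calls kept with each of the 9 libraries left out in dark colour. Dashed lines mark 13.2% higher and 15.7% lower among all genes tested, and counts from lists of under 20 genes rest on few genes. The lists were chosen with earlier results of these data known.

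The remaining lists stayed near the shares of all genes or moved with single libraries. Of 75 cytosolic ribosomal protein genes 17 were higher and none lower, and this count was 1 without blood replicate 1 or 3, 4 without lung replicate 1, 6 without bone marrow replicate 2 or blood replicate 2, 8 without bone marrow replicate 1, 9 without bone marrow replicate 3, 10 without lung replicate 2 and 54 without lung replicate 3. It was 41 with the replicate block, 34 with DESeq2 size factors and 2 in RSEM counts. Rpl23 alone was robust, at 0.99 ± 0.17. Of 76 nuclear-encoded respiratory chain genes 8 were higher (1 without lung replicate 1, 2 without blood replicate 2 or 3, 3 without bone marrow replicate 1 or 2 or blood replicate 1, 5 without bone marrow replicate 3 or lung replicate 2 and 16 without lung replicate 3) and 2 lower (0 without bone marrow replicate 2 or blood replicate 1, 2 or 3 or lung replicate 1 and 1 without bone marrow replicate 1 or lung replicate 2), with Ndufa2, a complex I subunit gene, the robust one at 1.03 ± 0.21. Of 42 proliferation genes 6 were higher (2 without blood replicate 2 or 3, 3 without bone marrow replicate 2 or blood replicate 1 or lung replicate 1 or 2 and 17 without lung replicate 3) and 2 lower (1 without blood replicate 1, 2 or 3 or lung replicate 1 or 2 and 4 without lung replicate 3), and 16 and 5 with the replicate block. Of 25 unfolded protein and stress response genes 5 were higher (1 without blood replicate 2 or 3, 2 without lung replicate 1 or 2 and 3 without bone marrow replicate 1, 2 or 3) and 2 lower (1 without blood replicate 3 and 4 without lung replicate 3), and 8 were higher with the replicate block. Of 19 clock genes 1 was higher (0 without blood replicate 3, 2 without blood replicate 2 and 5 without lung replicate 3, and 3 with the replicate block), and of 18 eicosanoid genes 3 (1 without blood replicate 1, 2 or 3 or lung replicate 1 or 2). Of 12 glucocorticoid response genes 1 was higher (0 without blood replicate 3 and 2 without blood replicate 1) and 2 lower (4 without lung replicate 3).

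A second quantification of the same 6 libraries, RSEM expected counts on another annotation, gave 1459 rises (10.3%) and 1704 falls (12%) among 14188 genes. It made the same call for 1229 of the 1780 rises and 1378 of the 2120 falls of the series table. It gave no call for 258 and 666, and 292 and 76 were not tested there or had no matching symbol. The RSEM fit left out the bone marrow libraries. On the same 6 libraries the series table gave 1313 rises and 1533 falls among 13052 genes, and 2820 of its 3900 calls were kept. Which part of the missing calls came with fewer libraries was not tested. The sign differed for 5 rises and 6 falls. Hist2h2aa2, a histone gene with a near-identical neighbour, changed by -11.05 ± 0.87 in the series table and by 0.20 in RSEM counts. Mki67, a proliferation marker, changed by 3.67 ± 0.71 and 0.07. Mmp2, a gelatinase gene, changed by 7.86 ± 1.73 and 3.22. Limma-voom called neither Hist2h2aa2 nor Mmp2, and edgeR with lung replicate 3 alone called neither Mki67 nor Mmp2. Which count is nearer to the true level was not tested.

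**Figure D5:**
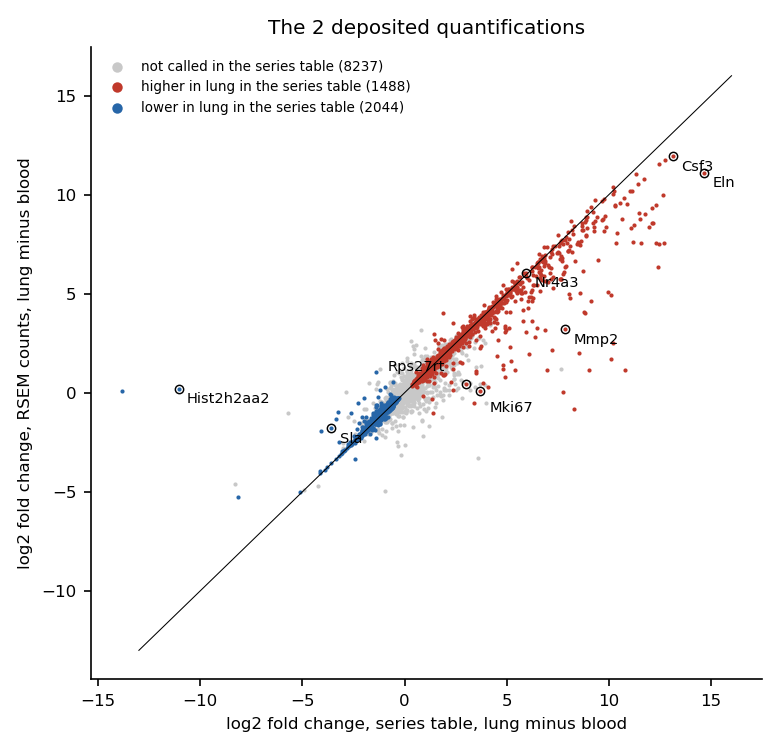
Log2 fold change, lung minus blood, from RSEM expected counts against that from the series table, 1 point a gene matched by symbol, with a line of equality. Most points lie near the line, and Hist2h2aa2, Mki67, Mmp2 and Rps27rt lie far from it.

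The RSEM files also cover 149 genes at 20 CPM or more that the series table lacks, of which 23 were higher and 16 lower in lung. Over all genes tested in RSEM counts, 10.3% were higher and 12% lower. Mitochondrially encoded genes are among those that the series table lacks. The mitochondrial ribosomal RNA gene mt-Rnr1 held 103, 96.7 and 125 CPM in blood and 1788, 1649 and 2432 CPM in lung, a rise of 4.18 ± 0.29 (adjusted p = 0.00186), and mt-Rnr2 held 339, 306 and 423 CPM in blood and 2801, 2136 and 3331 CPM in lung, a rise of 2.95 ± 0.29 (adjusted p = 0.00244), both by edgeR on RSEM counts. Lung replicate 3 was the highest library in both. The 13 protein genes followed another pattern. Their summed level was 1382, 2228 and 615 CPM in blood and 5936, 6435 and 1593 CPM in lung, so that lung replicate 3 lay inside the blood range. One of the 13, mt-Nd4, passed, at 1.88 ± 0.53 (adjusted p = 0.0451), and 10 had an unadjusted p under 0.05. Nuclear copies of mitochondrial sequence can take or give reads of these genes.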

How the data were processed

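Polyadenylated RNA of sorted neutrophils was sequenced. The deposited series table gives whole-number read counts and FPKM for 36780 transcripts in 9 libraries, per the file headers. The table's name calls them normalized, but the counts sum to different totals, and within a library FPKM equals the count over transcript length and 1 constant. The RSEM files hold expected counts and TPM for 55450 genes, per the file headers, and TPM was not used. Bowtie2, STAR, StringTie 2.1.3b, RSEM, DESeq2 and the mm10 build are named in the submitters' processing notes, and the sources used here do not give their roles. The kit is named as both unstranded and stranded, so overlapping antisense genes may share reads. Columns were matched to samples by name, and each column number is 1 more than the replicate number in the title.

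Counts were summed over transcripts into 24532 genes. Genes kept by the filter of edgeR 4.0.16 (R 4.3.3), 13510 in all, were fitted with TMM scaling and the quasi-likelihood test over all 9 libraries, with lung minus blood as the contrast and a Benjamini-Hochberg adjusted p under 0.05 as the call. RSEM expected counts deposited by the authors were rounded to whole numbers and fitted likewise, but on the 6 lung and blood libraries alone. Alternatives used limma 3.58.1, DESeq2 1.42.0, other scalings, no filter, the 6 libraries alone, log2 of FPKM plus 1 or plus 0.1, single libraries left out and the replicate number as a block. Deviations of same-numbered blood and lung libraries correlated at 0.114, 0.539 and 0.524 and those of other pairs at -0.581 to 0.488. Each same-numbered pair lay above 0.1, so the blocked fit is given beside results it changes, although blood replicate 2 with lung replicate 1 also correlated at 0.488. The calls reported come from the fit without the block. Members, lists and named genes (the largest and most reproducible changes, the largest changes in CPM, list members and disagreements between both counts) were chosen with earlier results of these data known. Many genes that the rule named are not reported here. The fits were also run on simulated counts, in which replicates of a tissue differed only in library total and random spread. That run therefore does not bear on transcripts of other cells or on a library that stands apart. Python 3.11.15 made tables and figures. The floor of 3 reads and all intervals of the fits cover only these libraries.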

Additional observations from a re-analysis of the deposited data

How the results depend on the processing

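Of the 1780 rises and 2120 falls, leaving out 1 library gave 956 to 2899 rises and 966 to 2953 falls, limma on FPKM plus 1 gave 1035 rises, and lung replicate 3 as the only lung library, a fit added after the data were seen, gave 817 falls. RSEM counts gave 1459 rises and 1704 falls. With 1 library left out these were 462 to 3107 and 527 to 2849, with the replicate block 2211 rises, with DESeq2 size factors 1104 falls, and with lung replicate 3 alone 923 and 529. Fewer samples entered the fits with lung replicate 3 alone, which assume that it varies like the other groups. For the other changed counts the cause was not tested. In the series table the replicate block gave 2073 rises and 2678 falls, with 3717 of the 3900 calls kept. It ended the calls of Adgre4, Cidec, Eln, Krt79, Ltc4s, Rps27rt and Sftpd (edgeR adjusted p of 0.0667, 0.0641, 0.0831, 0.0796, 0.0739, 0.102 and 0.0855) and of no other named gene. Genes without a call changed sign in places. Cxcr4 was -0.15 to 0.37 with 1 library left out, below 0 without blood replicate 2 or lung replicate 3, and -0.0027 on FPKM plus 1 and -0.0027 on FPKM plus 0.1. With lung replicate 3 alone S100a8 was 0.51. It was 0.00080 with upper-quartile scaling and -0.50 to 0.044 with 1 library left out, above 0 without blood replicate 3 or lung replicate 1. S100a9 was -0.16 without lung replicate 3. With lung replicate 3 alone Itgam was 0.43 and Ly6g 0.41. Hist2h2aa2 was 0.20 in RSEM counts. Of 235 named calls, DESeq2 kept 225, limma-voom 178, the block 228 and lung replicate 3 alone 119. Of 1680 list counts under alternatives, 1214 were within 1.5 times the count reported, a number that includes counts of 0 in both fits. Genes under about 1 CPM in blood rest on few reads.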
